A study of Homo sapiens with 36 samples.

Results

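The regions described here are CTCF-bound stretches of the genome at which a peak was called after every treatment but the knockdown of CHD3. The assay was ChIP-seq, the sequencing of DNA that comes down with an antibody to CTCF. The cells were HEK293T, an established line of human kidney origin that carries the SV40 large T antigen. Cells were transfected with a control small interfering RNA (siNC) or with one against CHD3 (siCHD3), CHD4 (siCHD4), CHD5 (siCHD5), MBD2 (siMBD2) or MBD3 (siMBD3). Each of these 6 conditions had 3 CTCF immunoprecipitates and 3 inputs, 36 samples in all, and 1 deposited peak list that pools its 3 replicates. Peaks of the 6 lists on chromosomes 1 to 22 and X that overlapped or touched were merged into 54382 regions. The members are the 1772 regions that hold peaks of siNC, siCHD4, siCHD5, siMBD2 and siMBD3 and none of siCHD3. They make up 13.0% of the 13583 regions called in those 5 lists (exact Clopper-Pearson 95% interval 12.5 to 13.6, counting error only), and the other 11811 were called in all 6 lists. The members were chosen by the presence or absence of peak calls in these same lists, so the numbers below describe them, and with pooled replicates there is no spread between replicates and no test between conditions. A region without a siCHD3 peak is a region that was not called in that list, and a call depends on sequencing depth as well as on binding, so "lost" in the sense of lost binding was not measured. Knockdown efficiency was not analysed here, and the time after transfection is not stated in the labels. Positions are hg19, 1-based. Genes and sequence of that build were not used here.

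CTCF is a zinc-finger protein that recognises a long DNA motif, stalls the cohesin ring as it extrudes chromatin, and so marks loop anchors and the borders of topological domains. NuRD couples nucleosome remodelling to histone deacetylation. CHD3, CHD4 and CHD5 are alternative ATP-dependent motor subunits of the complex, and MBD2 and MBD3 are alternative methyl-CpG-binding-domain subunits, of which MBD2 binds methylated DNA and MBD3 of mammals does so poorly. Regions that lack a call after the knockdown of CHD3 but not of CHD4 are, by definition, ones at which the lists of these paralogues part.

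The strongest members had high folds in most, though not all, of the lists that hold them. Among members with no siCHD3 peak within 1 kb, the region of highest median rank lay on chromosome 10 from 124326574 to 124326986, where the authors' fold enrichment at the summit was 13.5 in siCHD5, 11.2 in siMBD2, 10.8 in siNC, 7.05 in siMBD3 and 6.39 in siCHD4. The median of its ranks within these lists was the 96.8th percentile. Its siNC summit held 56 overlapping fragments, where the median member had 75, over a local background of 4.26 against 12.4. Fragment counts were also below the members' medians for siCHD4 (20 against 28), siCHD5 (41 against 53) and siMBD3 (13 against 17). For siMBD2 the count was above the median, at 27 against 21. The nearest siCHD3 peak was 1047 bp away. A region on chromosome 7 from 143875478 to 143875857 had the highest siNC fold of all members, 16.9, with 15.0 in siCHD5 and 11.1 in siMBD2, but 4.97 in siCHD4 and 5.30 in siMBD3, and no siCHD3 peak within 50366 bp. The summit pileup there, the number of overlapping fragments at the summit, was 66 in siNC and 44 in siCHD5 but only 12 in siCHD4 and 8 in siMBD3.

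On chromosome 10 from 82204476 to 82204817, the summits of the 5 lists fell within 2 bp of each other. The fold at this region was 16.0 in siCHD5, 12.3 in siMBD3, 11.1 in siMBD2, 8.04 in siNC and 5.00 in siCHD4, over 89, 27, 41, 127 and 39 fragments. On chromosome 18 from 60683455 to 60683883 the folds lay between 8.20 and 11.2, at 11.2 in siMBD2, 10.6 in siNC, 9.18 in siCHD4, 8.39 in siCHD5 and 8.20 in siMBD3. The region on chromosome X from 99926083 to 99926533 reached a fold of 17.5 in siMBD2 and 13.1 in siCHD5, against 8.09 in siNC, 5.64 in siCHD4 and 7.34 in siMBD3. That siMBD2 value was the highest of any member in its list. A region on chromosome 4 from 172955177 to 172955580 stood in a sparse stretch with 3 other siNC peaks within 500 kb, and its fold was 11.5 in siNC, 13.2 in siCHD5, 9.08 in siMBD2 and 10.2 in siMBD3 but 3.55 in siCHD4.

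**Figure D1:**
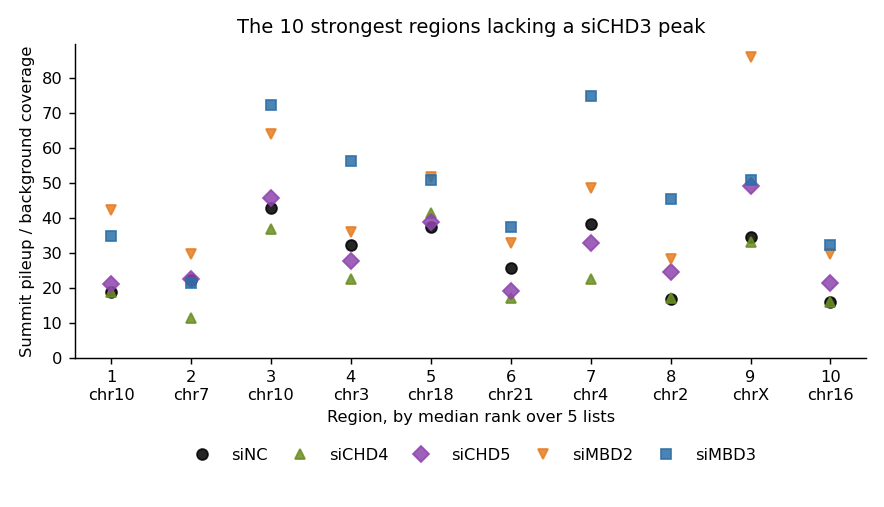
Summit pileup divided by the background coverage of its list (no unit) for the 10 members of highest median rank that have no siCHD3 peak within 1 kb, 1 point per list and no error bar because each list pools its replicates. In every region the highest point is siMBD2 or siMBD3, the lists of low background coverage, and the lowest is siCHD4 or siNC.

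As a set, the members were weaker than the regions called everywhere, in each of the 5 lists. Their median fold was 5.56 in siNC against 6.10 at regions called in all 6 lists, 6.88 against 7.61 in siMBD3, 6.72 against 7.39 in siMBD2, 7.03 against 7.57 in siCHD5 and 4.89 against 5.22 in siCHD4. The medians of the members were thus 0.904 to 0.936 of those of the shared regions. Summit pileups differed more, with medians of 75 fragments against 101 in siNC, 17 against 22 in siMBD3, 21 against 28 in siMBD2, 53 against 70 in siCHD5 and 28 against 37 in siCHD4. The local background that the fold is measured against was lower at the members too, 12.4 fragments against 15.6 in siNC. The members are therefore regions with fewer fragments both at the summit and around it.

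The members nevertheless spanned nearly the whole range of each list. Within siNC their median rank was the 58.1st percentile of fold, against the 68.9th for regions called in all 6 lists, and 168 of the 1772 (9.48%) stood in the strongest 10% of that list, against 18.8% of the shared regions. In siCHD5, 187 members (10.6%) did, in siMBD3 111 (6.26%), in siMBD2 109 (6.15%) and in siCHD4 48 (2.71%). The shares of the shared regions in these 4 lists were higher, from 11.2% in siCHD4 to 17.4% in siMBD3. Members ranked lowest in siCHD4, at a median of the 45.9th percentile. The regions called in all 6 lists also ranked lowest there, at the 54.7th, so the low rank in siCHD4 was not particular to the members. No member was in the strongest 10% of all 5 lists together, where 125 of the shared regions (1.06%) were, and 168 members (9.48%) were in the stronger 50% of every list, against 22.3%.

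**Figure D2:**
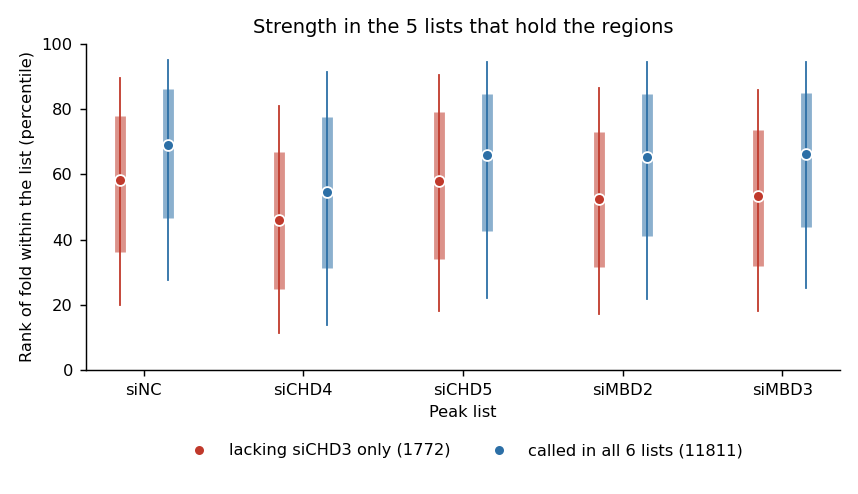
Rank of fold within each list, in percentiles, for the 1772 members and the 11811 regions called in all 6 lists. Points are medians, thick bars run from the first to the third quartile and thin lines from the 10th to the 90th percentile of regions. The members lie lower in every list, and the ranges overlap widely.

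The weakest members were of another kind. A region on chromosome 7 from 61968765 to 61969655 held 4784 fragments at its siNC summit over a local background of 3807, a fold of 1.26, with folds of 1.30 to 1.56 in the other 4 lists. Regions on chromosome 16 from 46408224 to 46408505 (961 fragments, fold 1.43 in siNC) and on chromosome X from 61691586 to 61692128 (960 fragments, fold 1.82) had low folds over high backgrounds too. A siNC background over 100 fragments was found at 5 of the 1772 members and at 80 of the 11811 regions called in all 6 lists. Such backgrounds were thus not particular to the members.

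Position within the region was as sharp at the members as at the shared regions. The summits of the 5 lists spanned a median of 23 bp at the members (quartiles 16 and 34) and 21 bp at regions called in all 6 lists. At 1632 members (92.1%) the span was at most 50 bp, against 91.7% of the shared regions. From the siNC summit, the median distance was 7 bp to the siCHD5 summit, 9 bp to the siCHD4 and siMBD2 summits and 10 bp to the siMBD3 summit. At 1769 of the members (99.8%) each of the 5 lists held a single peak, against 97.8% of the shared regions. Member peaks were somewhat shorter, with a median width of 320 bp against 352 bp in siNC and 236 bp against 263 bp in siMBD3.

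Long and structured siNC peaks were scarce among the members. Of the regions called in the other 5 lists, none of the 112 with a siNC peak over 1 kb lacked siCHD3 (interval 0 to 3.24%), and 19 of the 642 with a siNC peak of 500 bp to 1 kb did (2.96%, interval 1.79 to 4.58), against 266 of the 992 with a siNC peak under 250 bp (26.8%, interval 24.1 to 29.7). Where the siNC peak had several summits, 11 of 484 lacked siCHD3 (2.27%). The background for all of these shares is 13.0%. The classes of width also differed in siNC pileup, with medians of 65 fragments under 250 bp, 97 at 500 bp to 1 kb and 95.5 over 1 kb. The shares were not compared at equal pileup. At the siNC peaks over 1 kb the siCHD3 list had a median fold of 42.5, against 7.20 over all shared regions. The widest member was 895 bp long, on chromosome 10 from 135500242 to 135501136, with a fold of only 2.34 in siNC and 4.99 in siMBD3.

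Among regions that stood far from siNC in siCHD4 or siCHD5, members were few on 1 side only. Summit pileups were divided by the background coverage of their list and compared with siNC, each list on its own since all share the siNC list. Of the 378 regions whose siCHD5 value was at least 2-fold below siNC, none lacked siCHD3 (interval 0 to 0.971%), and of the 696 whose siCHD4 value was at least 2-fold above siNC, 9 did (1.29%, interval 0.593 to 2.44). Where called, siCHD3 had a median fold of 44.3 at the former and 42.8 at the latter. On the opposite sides, 9 of the 26 regions with a siCHD5 value 2-fold above siNC lacked siCHD3 (34.6%, interval 17.2 to 55.7). These 26 regions had a median siNC pileup of 32.5 fragments. They were picked by a ratio to siNC, so a low siNC pileup is in part built into them. Among the 1358 regions of lowest siNC pileup (12 to 54 fragments), 28.2% lacked siCHD3. The part of pileup in the share of the 26 was not tested. Of the 23 regions with a siCHD4 value 2-fold below siNC, 3 lacked siCHD3 (13.0%, interval 2.78 to 33.6). Over all regions called in both lists, 1.54% were 2-fold lower and 0.306% 2-fold higher in siCHD5, and 9.22% were 2-fold higher and 0.167% 2-fold lower in siCHD4. In siMBD2, 93 of the 681 regions 2-fold above siNC lacked siCHD3 (13.7%), and 1 of the 8 regions 2-fold below did (12.5%, interval 0.316 to 52.7). The 8 regions are too few to tell whether siMBD2 has such a split. Of all regions called in both siMBD2 and siNC, 7.45% were 2-fold higher and 0.0595% 2-fold lower in siMBD2.

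The medians of the members lay close to those of the shared regions in this comparison. The median log2 ratio of coverage-scaled pileup to siNC was 0.03 at members and 0.02 at regions called in all 6 lists for siCHD4, and 0.10 against 0.07 for siCHD5. It was 0.39 at both for siMBD2, and 0.81 against 0.77 for siMBD3. Members and shared regions thus differed by at most 0.04 on the log2 scale in any list. In siMBD3, 587 members (33.1%) were 2-fold above siNC, against 28.0% of the regions called in all 6 lists and 35.0% of all regions called in both siMBD3 and siNC, of which 0.00901% were 2-fold lower. Of the regions 2-fold above siNC in siMBD3, 15.1% lacked siCHD3 (interval 14.0 to 16.2). The ratios over 0 in siMBD2 and siMBD3 hold for members and shared regions alike and go with the low background coverage of those lists, 0.640 and 0.374 fragments per bp against 2.96 in siNC, whose part in them was not tested.

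The siCHD3 list itself was long but shallow. It held 34319 peaks, against 36270 in siNC and 25358 to 31451 in the other lists, but its background coverage, the lowest background implied by fold and p, was 0.445 fragments per bp. That is below siCHD5 (1.95), siCHD4 (1.06) and siMBD2 and above siMBD3. The siMBD3 list had 0.841 of the siCHD3 coverage, and the rule requires a siMBD3 peak at every member. Scaled up to the siCHD3 coverage, the siMBD3 summit pileups of the members had a median of 20.2 fragments, where a median of 8 would reach the smallest −log10 p of the siCHD3 list. These siMBD3 pileups were selected by the rule, since a region had to pass in siMBD3 to be a member at all. The part of depth in the absent siCHD3 calls was not tested.

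Thinning the pileups of the deeper lists to the siCHD3 coverage gave each region a chance of passing the smallest −log10 p in the siCHD3 list. From the siNC pileup, this chance had a median of 87.5% at the members (quartiles 71.7 and 95.7) and 96.9% at regions called in all 6 lists. From siCHD4 the members' median was 91.4%, from siCHD5 96.3% and from siMBD2, the list of nearest coverage among the deeper ones, 99.97%. Summed over the 13583 regions, 1471 were expected without a call from the siNC pileup, 1099 from siCHD4, 950 from siCHD5 and 125 from siMBD2, where 1772 were observed. For siMBD3, with 1592 observed, the expected number was 2347 from siNC, 2004 from siCHD4, 1528 from siCHD5, 354 from siMBD2 and 83.8 from siCHD3. For the deeper lists siNC gave fewer than observed, with 167 against 2526 for siCHD4, 27.8 against 439 for siCHD5 and 666 against 921 for siMBD2. At regions called in all 6 lists, siCHD3 pileups scaled by coverage stood a median of 0.59 above siNC on the log2 scale, 0.62 above siCHD4, 0.51 above siCHD5 and 0.23 above siMBD2, so at those regions the scaling from these lists gives fewer fragments than siCHD3 had. Against siMBD3 the siCHD3 pileups stood a median of 0.14 lower, so scaling siMBD3 up gives more fragments there than siCHD3 had. Every region counted had to be called in the list that was thinned, so its pileup was selected by the rule. The chances are therefore high, and the expected numbers low, in part by construction. The sums also hold no variation between libraries, so the difference from the observed number cannot be read as lost binding.

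**Figure D3:**
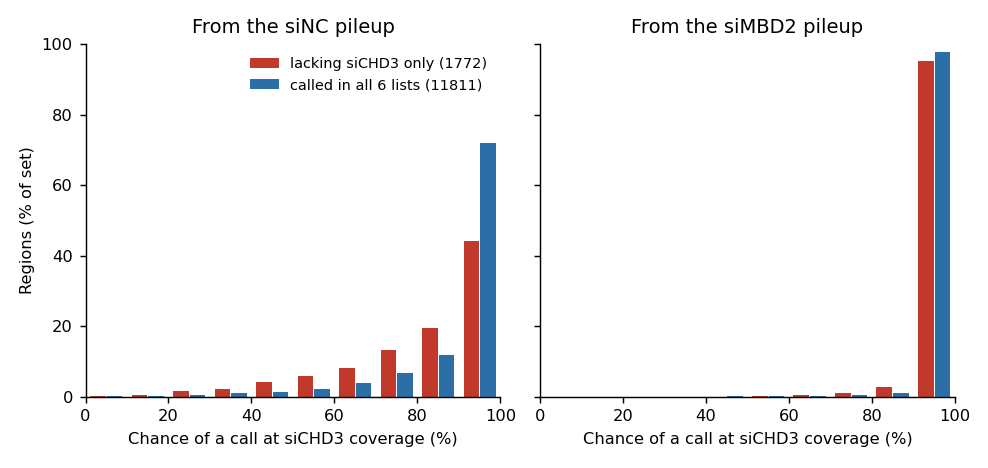
Share of regions, in percent of each set, by chance of a call at the siCHD3 coverage in steps of 10 percentage points, computed from the siNC pileup (left) and the siMBD2 pileup (right). From siNC the median chance is 87.5% at the members and 96.9% at regions called in all 6 lists, and from siMBD2 both sets crowd at the right edge.

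Members with many fragments in every deep list formed a smaller group. At 286 members (16.1%) the chance was over 95% from each of siNC, siCHD4, siCHD5 and siMBD2, against 42.2% of the regions called in all 6 lists. Their median pileup was 22 fragments in siMBD3, 29 in siMBD2, 79 in siCHD5, 40 in siCHD4 and 115 in siNC. The region of highest chance was on chromosome 6 from 2448943 to 2449351, with 31 fragments in siMBD3, 47 in siMBD2, 137 in siCHD5, 62 in siCHD4 and 178 in siNC and folds of 6.70, 10.2, 9.75, 5.48 and 7.77. Next came chromosome 9 from 35945735 to 35946169 (167 fragments in siNC, fold 7.41) and chromosome 3 from 113296687 to 113297114 (191 fragments, fold 8.34). The nearest siCHD3 peaks to these 3 regions were 25802, 8848 and 35609 bp away. Of the 286, 10 had a siCHD3 peak within 1 kb. Where the lowest of the 4 chances was at least 99%, 51 of 2385 regions lacked siCHD3 (2.14%, interval 1.60 to 2.80), against 245 of 1075 (22.8%) where it was under 50%.

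The share without a siCHD3 peak was lower the more fragments siNC had. It was 28.2% in the 10% of regions of lowest siNC pileup (383 of 1358, interval 25.8 to 30.7), 13.4% in the fifth 10% and 1.69% in the highest 10% (23 of 1359, interval 1.08 to 2.53). Thinning the siNC pileup, which also defines the classes, gave expected shares of 41.7%, 6.98% and 0.936% in them. The expected number depends on the list that is thinned, since from siMBD2 it was 125 over all classes, below the 383 observed in the lowest alone. By siNC fold the range was narrower, from 19.9% in the weakest 10% to 4.93% in the strongest 10%. Regions lacking siMBD3 only followed nearly the same course, from 30.3% to 1.49%, and those lacking siCHD4 only went from 34.1% to 1.39%.

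**Figure D4:**
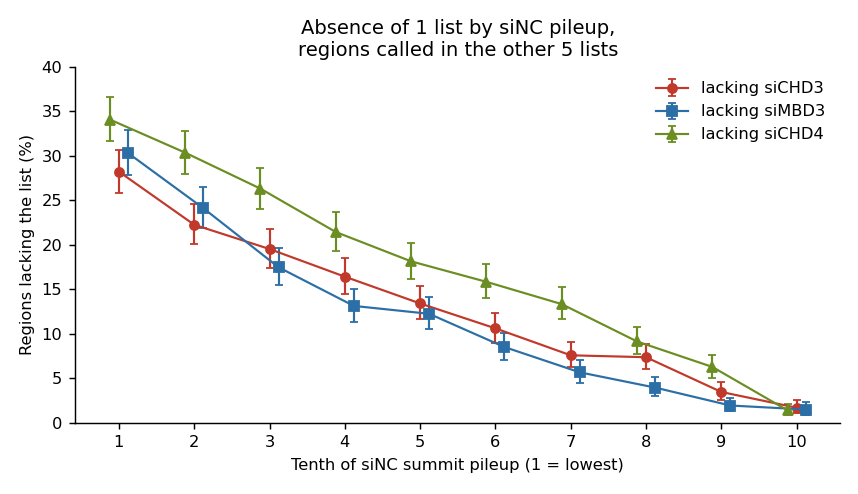
Percentage of regions lacking 1 list among the regions called in the other 5, by class of siNC summit pileup, each class holding 10% of the regions, for siCHD3, siMBD3 and siCHD4. Bars are exact 95% intervals of counting error. All 3 lines slope down, and siCHD3 goes from 28.2% to 1.69%.

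Set beside the other lists, the number lacking siCHD3 was neither the highest nor the lowest. Regions called in every list but siCHD4 numbered 2526 (17.6% of those called in the other 5 lists), but siMBD3 1592 (11.9%), but siMBD2 921 (7.23%), but siCHD5 439 (3.58%) and but siNC 46 (0.388%). Of all regions called in siNC, 35.7% had no siCHD3 peak and 41.7% no siCHD4 peak. Most absences from siCHD3 were thus shared with another list, and leaving siCHD4 out of the rule raised the members from 1772 to 2996. Requiring a −log10 q of at least 10 in the 5 lists that hold the region, with siCHD3 as deposited, left 381 members, 6.31% of the regions called.

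A siCHD3 peak seldom lay beside a member. The nearest was a median of 21419 bp away, and 59 members (3.33%, interval 2.54 to 4.27) had one within 1 kb, against 654 (5.54%, interval 5.13 to 5.96) of the regions called in all 6 lists with another siCHD3 peak that near. At regions lacking 1 other list only, a peak of that list lay within 1 kb at 2.53% for siCHD4, 3.04% for siMBD2, 3.14% for siMBD3, 4.78% for siCHD5 and 10.9% for siNC, the last being 5 of 46 regions. Of the 59 neighbouring siCHD3 peaks, 15 lay in regions called in siCHD3 alone, and 22 in regions called in all 6 lists. The closest pair was on chromosome 7, where the member from 826038 to 826373, with a fold of 5.24 in siNC and 16.0 in siCHD5, started 70 bp from a siCHD3 peak from 825383 to 825967 of fold 5.53. Next was chromosome 12 from 113899500 to 113899905, 173 bp from a siCHD3 peak of fold 6.67.

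On the other side of the threshold stood regions that siCHD3 only just called. The smallest siCHD3 −log10 q among the shared regions was 1.31, on chromosome 3 from 116489657 to 116490099, where siCHD3 had 9 fragments and a fold of 2.89, but siNC had 144 fragments and a fold of 8.03. A region on chromosome 7 from 26893357 to 26893810 followed with 6 siCHD3 fragments, a fold of 3.23 and a −log10 q of 1.35. Of the 11811 shared regions, 38 had a siCHD3 −log10 q under 2 and 619 (5.24%) under 5.

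Members were found on all 23 chromosomes, in unequal shares. On chromosome 18, 37 of 167 regions lacked siCHD3 (22.2%, interval 16.1 to 29.2), and on chromosome 4, 96 of 527 (18.2%, interval 15.0 to 21.8). The lowest share was on chromosome 1, with 134 of 1569 (8.54%, interval 7.20 to 10.0). Chromosomes 4, 13 and 18 together had 18.1% (interval 15.7 to 20.7), and chromosomes 16, 17 and 22 had 11.4% (interval 9.72 to 13.2). On these 3 chromosomes the share was higher where the median siNC pileup of the regions was lower, at 75 fragments on chromosome 18, 89 on chromosome 4 and 117 on chromosome 1, over local backgrounds of 11.0, 13.5 and 19.5. Other chromosomes did not keep this order: chromosome 3 had a median of 105 fragments and a share of 16.0%, chromosome 22 also 105 fragments but 10.7%, and chromosome 19 86 fragments and 12.1%. Over all 23 chromosomes the share expected from thinning siNC was 10.8%, below the 13.0% observed. By chromosome it was 15.7% on chromosome 18, 11.4% on chromosome 4 and 8.44% on chromosome 1. The observed share was above the expected one by 6.78 percentage points on chromosome 4, 6.66 on chromosome 3 and 6.46 on chromosome 18, 0.10 points above it on chromosome 1, and below it on chromosomes 22 (10.7% observed, 14.5% expected), 19 (12.1% and 14.8%), 17 (10.5% and 12.5%) and 15 (10.8% and 11.7%). These expected shares come from siNC alone. Chromosomes 18 and 4 were high for siMBD3 also, where 20.7% and 18.7% of regions called in the other 5 lists lacked it, against 11.9% over all chromosomes. Chromosome 1 was low for siMBD3 too, at 7.95%, and chromosome 3 stood at 12.2%.

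**Figure D5:**
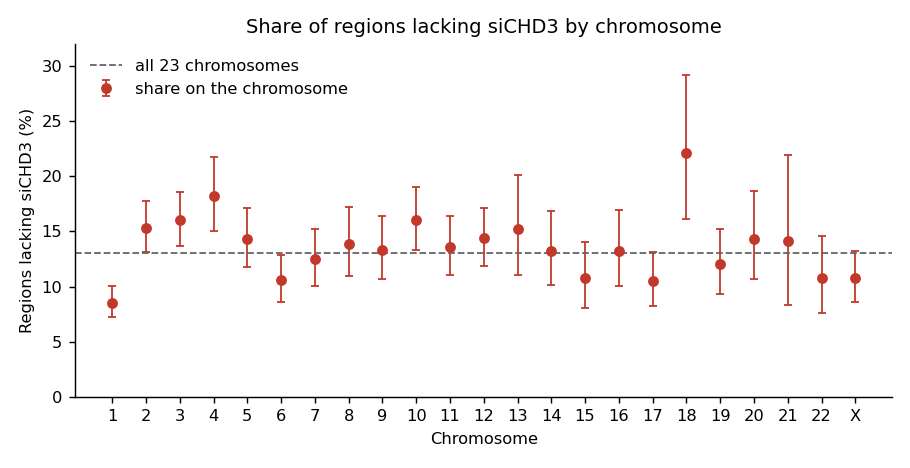
Percentage of regions without a siCHD3 peak among the regions called in the other 5 lists, by chromosome. Points are shares, bars exact 95% intervals of counting error, and the dashed line marks 13.0%. Chromosome 18 stands highest at 22.2% and chromosome 1 lowest at 8.54%.

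Members were more frequent where CTCF peaks were sparse. In the 20% of regions with the fewest other siNC peaks within 500 kb (0 to 10), 442 of 2716 lacked siCHD3 (16.3%, interval 14.9 to 17.7), and in the 20% with the most (24 to 57), 249 of 2717 did (9.16%, interval 8.11 to 10.3). Among regions at or below the median siNC pileup the shares were 22.2% (interval 20.3 to 24.3) and 15.2% (interval 13.2 to 17.4). Above it they were 6.97% (interval 5.51 to 8.67) and 4.55% (interval 3.56 to 5.71). The densest 20% thus had the lower share in both classes of pileup, with overlapping intervals above the median. The mean chance of a call from siNC was 88.8% in the sparsest and 88.3% in the densest 20%. It was 82.8% and 76.2% at or below the median pileup, and 98.3% and 97.5% above it.

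Neighbouring members did not form long blocks. The next of the regions called in the 5 lists was also a member for 248 of 1768 members (14.0%, interval 12.4 to 15.7) and for 12.9% of the regions called in all 6 lists (interval 12.3 to 13.5). Single members made up 1313 of the members, 178 runs held 2, 29 held 3 and 4 runs held 4. The runs of 4 lay on chromosomes 1, 3, 12 and 18. The run on chromosome 1 reached from 20031075 to 20522036, with siNC folds of 6.58, 5.35, 8.50 and 4.62 and siCHD5 folds of 7.47, 5.05, 14.1 and 12.4. In the run on chromosome 18, from 72364368 to 74635850, siNC folds were 3.82, 9.71, 8.54 and 9.37 over 49, 57, 47 and 55 fragments.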

How the data were processed

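The submitters' processing notes name MACS2 2.1.2, Bowtie2 2.3.4, deepTools 3.5.0, bedtools 2.25.0, SAMtools 1.9, FastQC 0.11.7 and the build hg19; the role and settings of each are not stated there. The deposited files were 6 narrow-peak lists, named as 3 replicates pooled by the authors. They were taken to hold the authors' linear fold ratio at the summit, the deposited −log10 p and −log10 q, a deposited display score (not used) and the summit offset. Lines sharing a start and end were counted as 1 peak, with the summit of highest fold.

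Merging was done in Python 3.11.15 (numpy 2.4.6, scipy 1.17.1, pandas 2.3.3) and gave the same regions as bedtools 2.31.1. In a region with several peaks of a list, the one of highest fold was used. Read totals were not used here. Pileup and background were solved from fold, taken as pileup plus 1 over background plus 1, and a Poisson upper tail for p; in every list, 100% of peaks had a whole number of fragments that gave p to within 0.01%; with p shuffled, at most 1.87% did. The smallest background was taken as the coverage of a list, which scales with depth times fragment length. Thinning was binomial. Merging, the solution and thinning were tested on simulated data.

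The members, lists and rules were chosen with earlier results of these data known. Named regions were the 10 members of highest median rank with no siCHD3 peak within 1 kb, the 5 nearest to a siCHD3 peak, the 5 shared regions of smallest siCHD3 −log10 q, the 5 widest, the longest runs, the 5 of highest chance and the 3 weakest; the leading ones are printed. Promoters and motifs were not analysed here.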

Additional observations from a re-analysis of the deposited data

Results flagged for a closer look

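Peaks outside chromosomes 1 to 22 and X were left out of the counts above. Outside these chromosomes, 11 of 286 regions called in the other 5 lists had no siCHD3 peak (3.85%, exact 95% interval 1.94 to 6.78). The share was 13.0% on the main chromosomes, and the 11 regions lay on 9 contigs. They were noted because they are signal in data that the comparisons did not use.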

How the results depend on the processing

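The number of members stayed within 1.5 times of 1772 under the alternatives run, except for 381 with a −log10 q of at least 10 in the 5 lists other than siCHD3 and 2996 with siCHD4 left out of the rule. The share lacking siCHD3 (13.0%) was 15.2% and 21.1% with −log10 q of at least 5 and 10 in all lists, 6.31% with 10 in the other 5 lists only, 13.8% by summits within 100 bp, 14.7% by reciprocal overlap of 50%, 15.4% with lists of equal length, 14.0% without peaks over 1 kb, and 17.3%, 14.9% and 16.0% with siCHD4, siMBD2 or siMBD3 left out of the rule. The median siNC fold of members relative to shared regions (0.912) was 0.932 with lists of equal length. Members with no siCHD3 peak within 1 kb (96.7%) made up 97.7% and 98.0% at −log10 q of 5 and 10 in all lists, 98.2% merging within 500 bp, 100% by construction where that distance was the rule, 93.7% by summits, 87.6% by reciprocal overlap and 97.7% with lists of equal length. The median chance of a call (87.5% from siNC) was 91.4%, 96.3% and 99.97% from siCHD4, siCHD5 and siMBD2, and 82.9% with the threshold at the weakest 5% of siCHD3 peaks. The siMBD3 difference between members and shared regions was 0.04 by scaled pileup and -0.025 by the authors' fold. The cause of these shifts was not tested; the other 44 values stayed within 1.5 times for counts, and otherwise within the 95% interval of the reported value (exact binomial for shares; for medians, over the members' order with the shared regions' median held fixed, such as 0.897 to 0.926 for the ratio of folds). Density within classes of pileup, classes of peak shape and the sums expected from thinning were chosen after the data were seen. With siNC left out of the rule the ratio of siNC folds has no value. No paired analysis was possible because the lists pool the replicates. The siCHD3 and siMBD3 lists had the lowest coverage; its part in the absent calls was not tested.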
